A study of Mus musculus with 2 samples.

Results

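Cell division genes were examined as a set of 40 named members among the 55536 genes of the deposited gene table, of which 21888 are protein-coding genes of the nuclear chromosomes. Members were matched by gene symbol, and all 40 were found. They were divided by textbook role into 16 S phase members, which act mainly in or before DNA replication, and 24 mitotic members. The mitotic members act mainly from the end of replication to the separation of the daughter cells. The class of Gmnn, Ccna2, Cdk1 and Foxm1 is less clear, and the classes were also compared without them. Levels and the difference between the libraries were compared between these classes.

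The libraries hold total RNA of adrenal glands of B6CASTF1/J males aged 2 months, F1 animals of a cross between C57BL/6J and CAST. There is 1 group with 2 libraries, labelled biological replicates 1 and 2, and each started from 300 ng of RNA, reduced in ribosomal RNA, mixed with ERCC spike-in RNAs and prepared with a kit that keeps the strand. The sample descriptions number the animals differently, but the library descriptions carry the same animal number and the donor field the same identifier, so that there were 2 animals rests on the sample descriptions. No treatment, genotype or other strain was compared, so each ratio below sets 1 library against 1 library and carries no p-value.

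Before S phase, origins of replication are licensed by loading the MCM helicase, and in S phase the cell copies its DNA with freshly made nucleotides. In mitosis, cyclin-dependent kinase 1 with its cyclins drives chromosome condensation, spindle assembly and, once the anaphase-promoting complex is active, chromosome separation. E2F factors switch on many S phase genes, whereas many mitotic genes are switched on later through CCAAT boxes, bound by NF-Y, and through the CHR element, bound by DREAM and FOXM1-MYBL2 complexes. In the adult adrenal gland dividing cells are known mainly from the capsule and the outer cortex.

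The promoters below are shown because the classes are told apart in the literature by these elements. RefSeq entries on GRCm38.p6 were given for 32 of the 40 members, 13 of them S phase and 19 mitotic, and the 250 bases before each start were searched on both strands. The CHR element was searched as TTTGAA, the CCAAT box as CCAAT, the E2F site as TTTCCCGC, TTTGGCGC, TTTCGCGC or TTTGCCGC, and a TATA box as TATAAA. An E2F match on one strand can overlap a match on the other, as in Mcm5 and Mcm6. The printed members are the highest by TPM in their class with an entry, passing over those whose window held over 30 exon bases of the same gene in GENCODE M21. Sequences read 5′ to 3′ on the gene's strand and end at the base before the RefSeq start, with every match in capitals.
Cdk1, chr10:69352913-69353162, minus strand: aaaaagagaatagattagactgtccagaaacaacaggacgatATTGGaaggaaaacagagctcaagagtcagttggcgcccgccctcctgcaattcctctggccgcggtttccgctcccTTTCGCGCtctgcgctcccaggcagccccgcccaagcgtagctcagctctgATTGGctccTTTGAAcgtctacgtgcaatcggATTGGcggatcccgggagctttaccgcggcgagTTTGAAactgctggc
Top2a, chr11:99024190-99024439, minus strand: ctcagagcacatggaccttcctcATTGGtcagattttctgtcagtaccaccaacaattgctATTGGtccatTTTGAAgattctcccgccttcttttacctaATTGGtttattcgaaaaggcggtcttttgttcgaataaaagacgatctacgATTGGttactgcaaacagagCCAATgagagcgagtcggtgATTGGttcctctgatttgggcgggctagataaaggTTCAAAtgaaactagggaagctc
Cdc20, chr4:118437344-118437593, minus strand: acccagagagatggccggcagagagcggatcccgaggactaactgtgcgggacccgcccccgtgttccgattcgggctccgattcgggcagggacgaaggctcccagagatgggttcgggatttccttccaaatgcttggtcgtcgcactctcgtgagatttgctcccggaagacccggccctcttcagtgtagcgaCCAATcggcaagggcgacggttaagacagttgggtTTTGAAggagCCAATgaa
Prc1, chr7:80294226-80294475, plus strand: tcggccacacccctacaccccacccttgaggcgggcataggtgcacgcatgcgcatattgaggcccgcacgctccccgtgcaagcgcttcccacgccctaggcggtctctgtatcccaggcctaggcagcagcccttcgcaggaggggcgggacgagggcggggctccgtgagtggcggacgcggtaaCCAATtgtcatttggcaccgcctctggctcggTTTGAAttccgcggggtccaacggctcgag
Mcm2, chr6:88898781-88899030, minus strand: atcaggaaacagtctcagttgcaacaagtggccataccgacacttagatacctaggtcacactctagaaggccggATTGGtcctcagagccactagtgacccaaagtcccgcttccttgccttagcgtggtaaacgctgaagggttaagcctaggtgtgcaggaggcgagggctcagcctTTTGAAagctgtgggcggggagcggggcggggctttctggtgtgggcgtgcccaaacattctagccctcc
Mcm7, chr5:138171267-138171516, minus strand: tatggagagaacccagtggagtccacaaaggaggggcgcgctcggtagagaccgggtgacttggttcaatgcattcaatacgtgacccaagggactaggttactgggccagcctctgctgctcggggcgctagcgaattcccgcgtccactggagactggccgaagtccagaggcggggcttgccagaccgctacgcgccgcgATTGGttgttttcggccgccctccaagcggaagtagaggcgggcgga
Rrm1, chr7:102441445-102441694, plus strand: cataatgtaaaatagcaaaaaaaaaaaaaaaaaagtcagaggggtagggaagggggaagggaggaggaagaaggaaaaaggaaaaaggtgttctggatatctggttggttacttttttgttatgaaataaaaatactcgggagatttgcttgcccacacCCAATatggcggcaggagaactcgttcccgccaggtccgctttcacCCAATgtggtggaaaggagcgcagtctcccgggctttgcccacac

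A CHR match lay in 8 of the 19 mitotic promoters (Ccnb2, Cdc20, Cdk1, Kif11, Mki67, Prc1, Top2a and Ube2c) and in 1 of the 13 S phase promoters (Mcm2). Over 32851 promoter windows of the same length it lay in 16.0%, and over 21263 windows of protein-coding genes in 14.5%. In the printed mitotic promoters the CHR match nearest the start stood at bases -15 to -10 in Cdk1, -23 to -18 in Top2a, -18 to -13 in Cdc20 and -30 to -25 in Prc1, counted back from the start, and in Top2a it was on the opposite strand. Cdk1 held a further match at -71 to -66 and Top2a at -179 to -174. The match of Mcm2 stood at -70 to -65, as far out as the farther match of Cdk1. Ccnb2 and Mki67 held only matches farther from the start than that of Mcm2. A CCAAT match lay in 17 of 19 mitotic and 8 of 13 S phase promoters, against 33.8% of all windows and 35.4% of protein-coding windows, and Top2a and Ube2c held 6 each.

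E2F matches were divided the other way. They lay in 4 of 13 S phase promoters (Cdc6, Mcm5, Mcm6 and Mcm7) and in 1 of 19 mitotic promoters (Cdk1, at -131 to -124), against 1.86% of all windows and 2.35% of protein-coding windows. The Mcm7 match is in another RefSeq window than the printed one, which starts at a second listed transcript start. The exon limit was applied in printing only, so the counts of matches keep every window. Mcm7 and Prc1 have 2 windows each and were counted once, as matched if either window held a match. The shares over all windows count every window by itself. The CHR match of Prc1, like the E2F match of Mcm7, is in only 1 of the 2 windows. Some windows lie inside the gene as annotated in GENCODE M21. The Cdc6 window starts at 98907901 where the gene starts at 98907801, and the Mcm7 windows also lie within their gene. TATAAA was found in 0 of the 32 members with an entry and in 12.4% of all windows. These matches describe letters in a window and not binding, and the lack of a match says nothing of a factor.

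**Figure D1:**
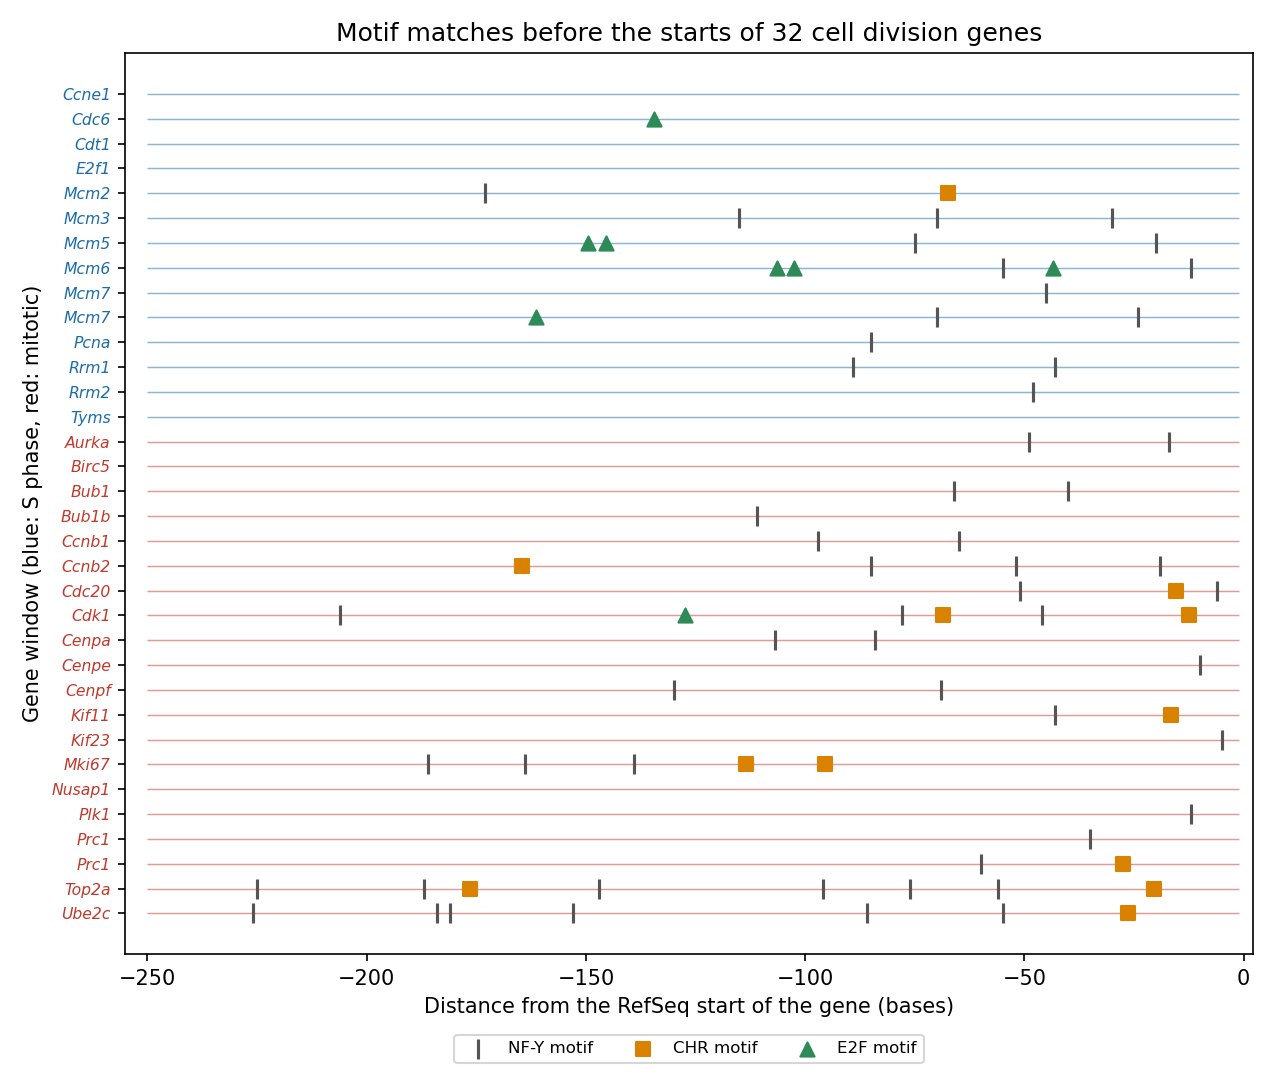
Positions of motif matches in the promoters of the members with a RefSeq entry, with bases before the RefSeq start on the x axis. Each row is 1 window, and Mcm7 and Prc1 have 2 rows each. Marker types stand for the CHR, NF-Y (CCAAT) and E2F motifs. CHR matches are in 8 of 19 mitotic and 1 of 13 S phase promoters, and E2F matches in 1 of 19 and 4 of 13.

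Gene levels are given as TPM, in which reads are divided by effective length and scaled to a fixed total per library, so genes can be set beside each other. All 40 members had reads in both libraries, and most were expressed at low levels. Their TPM summed to 89.78 in replicate 1 and 108.86 in replicate 2. They took 0.0214% and 0.0255% of gene counts, which were 7726 and 8715 member counts from libraries of 36512731 and 34454888 expected counts. In all, 19 of 40 members reached 1 TPM in both libraries, beside 11915 of the 21888 nuclear protein-coding genes. TPM leaned to replicate 2 in general: it was higher there for 10700 nuclear protein-coding genes and lower for 6034. Of the 40 members, 36 had a higher TPM in replicate 2 and 4 a lower one.

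S phase members stood above mitotic members in both libraries. Their median was 3.41 TPM in replicate 1 and 4.50 TPM in replicate 2, against 0.56 and 0.92 TPM for the mitotic members. The medians of the members' means were 3.87 ± 0.771 TPM and 0.755 ± 0.255 TPM (SD of the library medians, n = 2), a 5.13-fold difference, which was 6.09-fold in replicate 1 and 4.89-fold in replicate 2. On the log2 scale this is 2.36. The gap between the classes in each library is larger than the spread between the libraries.

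Single members overlapped little. Of the 16 S phase members, 13 had a higher mean TPM than Cenpa, the highest mitotic member, and the exceptions were Ccne1, Ccne2 and Cdc6. S phase members ranged from 0.225 TPM (Cdc6) to 19.7 TPM (Pcna), and mitotic members from 0.105 TPM (Bub1) to 2.04 TPM (Cenpa). Among all nuclear protein-coding genes the median S phase member lay at the 57.5th percentile of TPM (range 36.1 to 85.6) and the median mitotic member at the 43.0th (range 32.3 to 50.6). At 1 TPM or more in both libraries were 14 of 16 S phase and 5 of 24 mitotic members, and 15 mitotic members were below 1 TPM in both.

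**Figure D2:**
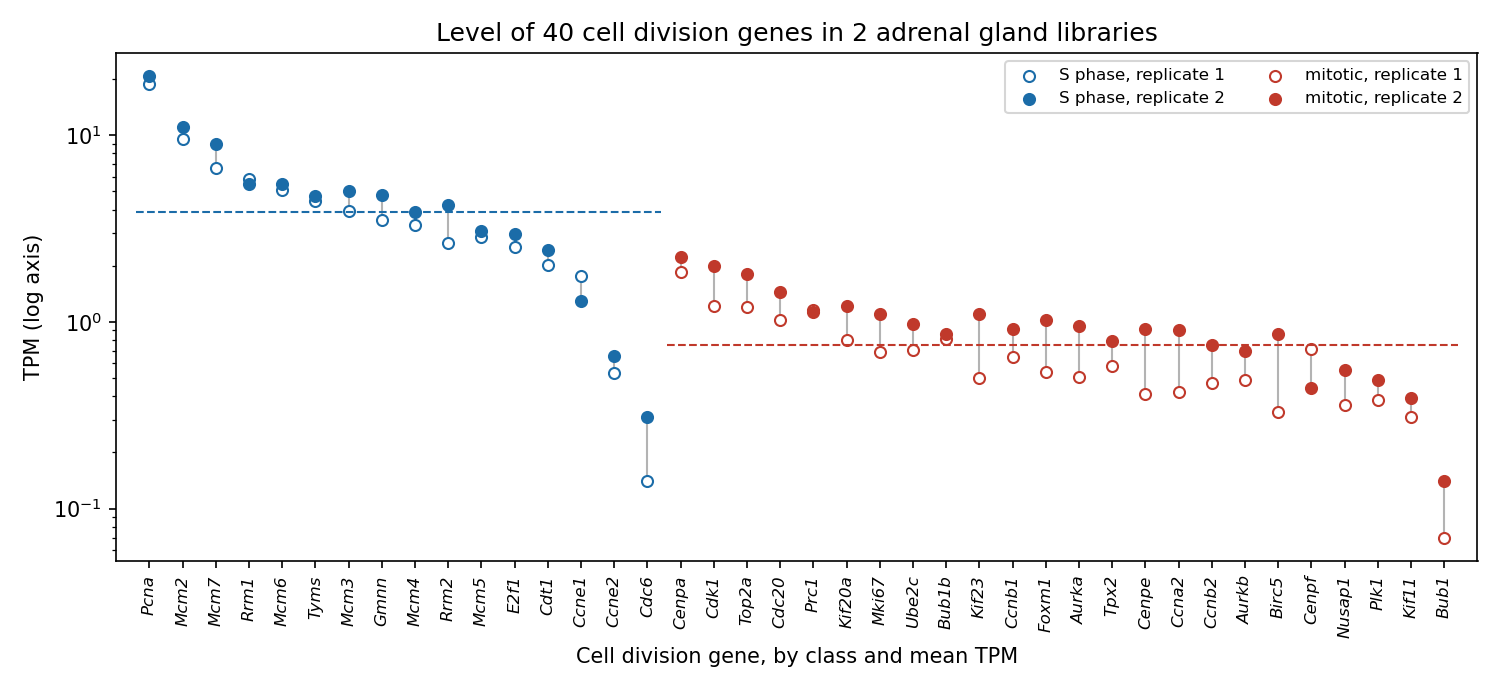
TPM of each member (y axis, log scale) with genes on the x axis by class, open points for replicate 1, filled points for replicate 2 and dashed lines at the class medians of mean TPM (3.87 and 0.755). The S phase medians are 3.41 and 4.50 TPM and the mitotic medians 0.56 and 0.92 TPM in replicates 1 and 2.

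Among the S phase members, Pcna, the sliding clamp that holds DNA polymerase on its template, was highest at 18.73 TPM in replicate 1 and 20.76 TPM in replicate 2 (19.7 ± 1.44, SD, n = 2). The 6 MCM helicase subunits were all above 1 TPM, and Mcm2 and Mcm7 followed Pcna directly. Mcm2 had 9.57 and 11.02 TPM, Mcm7 had 6.68 and 9.03 TPM, and Mcm6 had 5.09 and 5.50 TPM. The other subunits were lower in both libraries, with 3.95 and 5.0 TPM for Mcm3, 3.32 and 3.87 TPM for Mcm4, and 2.84 and 3.08 TPM for Mcm5. Every MCM subunit was higher in replicate 2.

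The enzymes that make DNA precursors lay in the same range as the MCM subunits. Rrm1, the large subunit of ribonucleotide reductase, had 5.81 and 5.49 TPM and was the member of this group that was lower in replicate 2. Its small subunit Rrm2, whose amount follows the cell cycle more closely, had 2.64 and 4.25 TPM. Tyms, which makes thymidylate, had 4.45 and 4.75 TPM.

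The licensing factors spread more widely. Gmnn, which inhibits the loading factor Cdt1, had 3.50 and 4.79 TPM, and Cdt1 itself had 2.03 and 2.44 TPM. Cdc6, which loads the MCM helicase together with Cdt1, was the lowest S phase member with 0.14 and 0.31 TPM. The transcription factor E2f1 had 2.52 and 2.95 TPM. The E cyclins, which act with CDK2 at S phase entry, were low, at 1.77 and 1.30 TPM for Ccne1 and 0.53 and 0.66 TPM for Ccne2, and Ccne1 was lower in replicate 2.

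Among the mitotic members, the leading ones belonged to different groups. Cenpa, the histone H3 variant of centromeres, had 1.85 and 2.22 TPM. Cdk1, the mitotic kinase, had 1.22 and 2.00 TPM, and Top2a, which untangles chromosomes, had 1.20 and 1.80 TPM. Cdc20, an activator of the anaphase-promoting complex, had 1.03 and 1.44 TPM, and Prc1, which bundles microtubules of the central spindle, had 1.16 and 1.13 TPM. These are the 5 mitotic members at 1 TPM or more in both libraries.

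The cyclins that pair with Cdk1 were lower than the kinase itself. Ccna2 had 0.42 and 0.90 TPM, Ccnb1 had 0.65 and 0.92 TPM, and Ccnb2 had 0.47 and 0.75 TPM. All 3 were higher in replicate 2.

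Kinases and checkpoint proteins of mitosis were all below 1 TPM in both libraries. Aurka, a kinase of spindle poles, had 0.51 and 0.95 TPM, and Aurkb, the kinase of the chromosomal passenger complex, had 0.49 and 0.70 TPM. Birc5 (survivin), a partner of Aurkb in that complex, had 0.33 and 0.86 TPM. Plk1, a kinase of mitotic entry, had 0.38 and 0.49 TPM. The spindle checkpoint kinase Bub1 was the lowest member, at 0.07 and 0.14 TPM on 9 and 16 counts, while its relative Bub1b had 0.81 and 0.86 TPM. Birc5 was the member of this group with the widest gap between the libraries.

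Centromere and spindle genes lay in the same low range. The kinetochore motor Cenpe had 0.41 and 0.92 TPM, and the kinetochore protein Cenpf had 0.72 and 0.44 TPM. Of the motors, Kif11 (spindle pole separation) had 0.31 and 0.39 TPM, and Kif20a and Kif23 (both of cytokinesis) had 0.80 and 1.22 TPM and 0.50 and 1.10 TPM. The spindle assembly factors Tpx2 and Nusap1 had 0.58 and 0.79 TPM and 0.36 and 0.55 TPM. Apart from Cenpf, each of these was higher in replicate 2 by TPM.

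Mki67, the source of the Ki-67 antigen that coats mitotic chromosomes, had 0.69 and 1.10 TPM. Ube2c, the ubiquitin-conjugating enzyme of the anaphase-promoting complex, had 0.71 and 0.97 TPM. Foxm1, a transcription factor of mitotic genes, had 0.54 and 1.02 TPM. All 3 were higher in replicate 2, and their TPM straddled 1 or stayed just below it.

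Whether low TPM here stands for few dividing cells or for little RNA in each cannot be told apart in a bulk sample, and the same holds for the difference between the libraries.

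The ratio of the libraries was taken from expected counts, which are not divided by gene length, after TMM scaling. Values are log2 of replicate 2 over replicate 1, and members needed a mean of 20 counts, which left out only Bub1. Almost all counted members were higher in replicate 2: 36 of 39, or 92.3%, with a median of 0.22. Over the 15660 genes at the same minimum the median was -0.00 and 49.4% were higher in replicate 2. For the mitotic members the median was 0.36, and 22 of 23 were higher. For the S phase members it was 0.14, and 14 of 16 were higher, so the medians differed by 0.22. The members lower in replicate 2 were Ccne1, Rrm1 and Aurkb.

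Past 1.5-fold, 7 of 39 members (17.9%) were higher in replicate 2, whereas 3.33% of all genes at 20 counts were. Of these, 6 were mitotic and 1 was S phase, which is 26.1% and 6.25% of the counted members of each class. None of the 39 was over 1.5-fold lower, and 3.1% of all genes were. Low counts scatter more, so the members were also set beside protein-coding genes of like counts. Between 20 and 400 counts, 4.48% of such genes were over 1.5-fold higher and 5.49% over 1.5-fold lower. Between 20 and 100 counts the shares were 7.95% and 10.4%, while 6 of the 17 mitotic members in that band (35.3%) and 1 of the 3 S phase members were over 1.5-fold higher.

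A 95% counting interval (exact Clopper-Pearson, on the share of a gene's counts in replicate 2) lay above 0 for 12 of 39 members and below 0 for none of them. It lay above 0 for 16.7% and below 0 for 17.4% of all genes at 20 counts. For protein-coding genes of 20 to 400 counts the shares were 8.97% above and 11.7% below, and for those of 20 to 100 counts 6.95% lay above. By class it lay above 0 for 8 of 23 mitotic members (34.8%) and 4 of 16 S phase members (25%). The intervals treat every count as a separate read, cover counting error only and hold no difference between animals. The reads carry no molecular identifiers and may be copies of each other, and where they are, the intervals are too narrow.

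The widest ratio belonged to Birc5, which had 11 counts in replicate 1 and 34 in replicate 2. Its ratio was 1.60, with an interval of 0.62 to 2.77, and the gene lies at chr11:117849251-117855743 on the plus strand (mm10, GENCODE M21). Cdc6 (chr11:98907801-98923940, plus strand) followed with 15 and 34 counts and a ratio of 1.16 (0.28 to 2.17). Ccna2 (chr3:36564865-36572150, minus strand) had 42 and 85 counts and a ratio of 1.02 (0.48 to 1.60). In each of these 3 the count in replicate 2 was more than double that in replicate 1, from small counts with wide intervals. Cdk1 had 47 and 82 counts and a ratio of 0.81 (0.28 to 1.36), and Kif23 had 46 and 72 counts and a ratio of 0.65 (0.10 to 1.22).

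Aurka and Ccnb2 were past 1.5-fold with intervals that held 0. Aurka had 35 and 54 counts (0.63, interval -0.00 to 1.29), and Ccnb2 had 26 and 39 counts (0.59, interval -0.16 to 1.37).

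Other mitotic members had smaller ratios with an interval above 0. Mki67 (chr7:135689784-135716361, minus strand) had 268 and 395 counts and a ratio of 0.57 (0.34 to 0.80), and Top2a had 173 and 221 counts and a ratio of 0.36 (0.07 to 0.66). Cenpf had 102 and 135 counts (0.41, interval 0.03 to 0.80) and Prc1 had 84 and 112 counts (0.42, interval 0.00 to 0.85). Cenpe (121 and 137 counts, 0.19), Bub1b (106 and 111 counts, 0.08) and Kif20a (95 and 105 counts, 0.15), which have more counts than Prc1, had lower ratios with intervals that held 0. At a mean of 100 or more counts, 6 of 6 mitotic members were higher in replicate 2 with a median of 0.28, none of them past 1.5-fold. The remaining counted mitotic members lay between -0.03 (Aurkb, 35 and 34 counts) and 0.54 (Nusap1, 42 and 61 counts), each with an interval that held 0.

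Among the S phase members, Rrm2 (chr12:24708241-24714146, plus strand) had 212 and 313 counts and a ratio of 0.57 (0.32 to 0.83). Gmnn had 114 and 147 counts and a ratio of 0.38 (0.01 to 0.74), and Mcm2 had 920 and 1017 counts and a ratio of 0.15 (0.02 to 0.28). Together with Cdc6 these are the S phase members whose interval lay above 0. The other MCM subunits lay between 0.04 and 0.16, so all 6 of the helicase were close to each other, with a median of 0.14. Pcna had 1006 and 1043 counts (0.06) and Rrm1 had 801 and 778 counts (-0.03), which is nearly level between the libraries.

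Counts summed over a class gave the same order. The S phase members summed to 6030 and 6487 counts, a log2 ratio of 0.12, and the mitotic members to 1697 and 2227 counts, a ratio of 0.40. Without Mki67 and Top2a, which have the most counts among them, the mitotic members summed to 1256 and 1611 counts, a ratio of 0.37. The 9 S phase members whose counts lie within the mitotic range had a median ratio of 0.15 with 8 higher in replicate 2. By role, the median ratio was 0.70 for the mitotic cyclins with Cdk1, 0.47 for Mki67 and Top2a, 0.39 for the spindle genes, 0.32 for Cdc20 and Ube2c, 0.31 for the kinases and checkpoint genes and 0.19 for the centromere genes.

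The ratios of most members fell within the spread of protein-coding genes of 20 to 400 counts. Over the 5027 protein-coding genes of 20 to 400 counts the central 95% of ratios ran from -0.76 to 0.80 around a median of -0.03, and 28 of the 32 members in that count range lay inside it. Cdc6, Cdk1, Ccna2 and Birc5 lay above it, Cdk1 only just, at 0.807 against a limit of 0.799. Their mean counts were 24.5, 64.5, 63.5 and 22.5, near the low end of the range, where ratios scatter more. The band is therefore not matched to their counts.

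**Figure D3:**
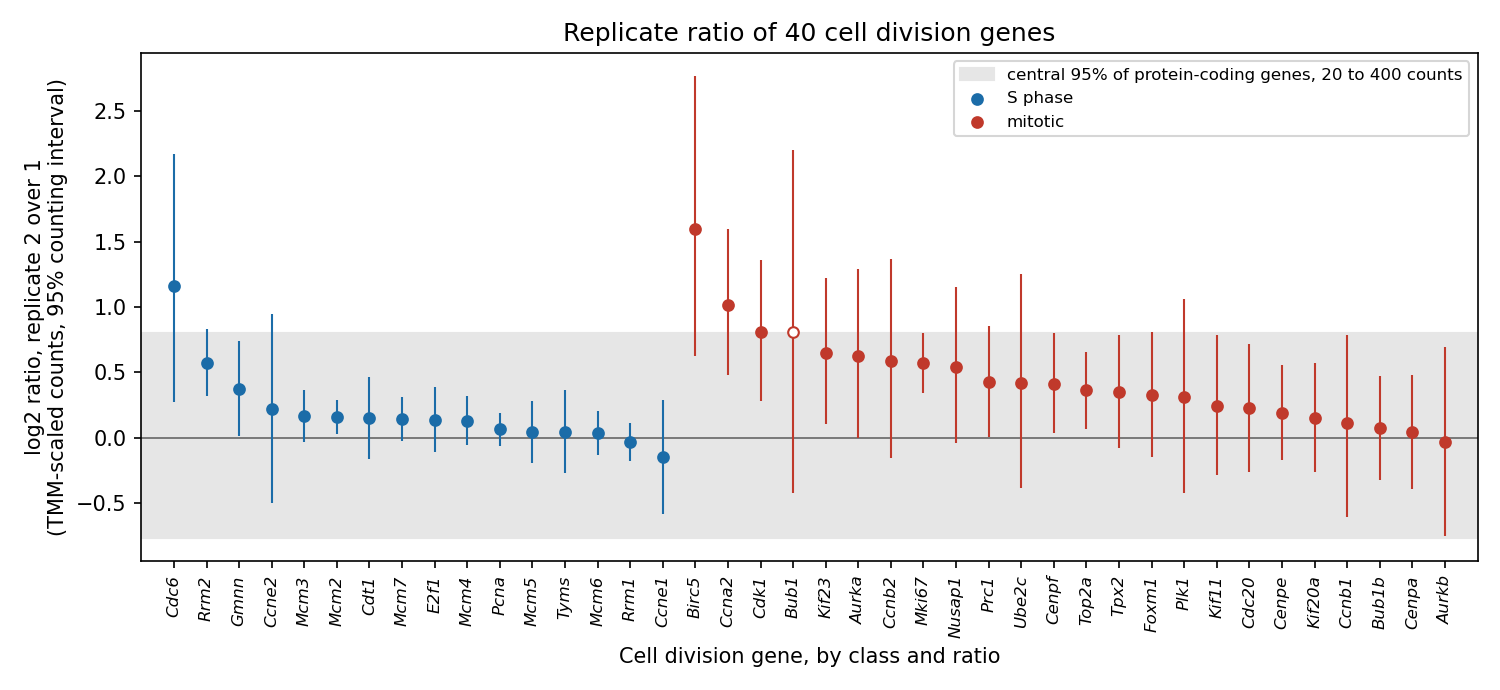
Log2 ratio of replicate 2 over replicate 1 from TMM-scaled expected counts (y axis) for each member by class (x axis), with bars for the 95% counting interval, an open point for Bub1, which is under 20 counts, and a grey band for the central 95% of protein-coding genes of 20 to 400 counts. The median of the counted members is 0.14 for the S phase and 0.36 for the mitotic class, and the members below 0 are Ccne1, Rrm1 and Aurkb.

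TPM gave a different picture for a few members because the gene length it is divided by, which follows the mix of transcripts assigned, differed between the libraries. It differed over 1.25-fold for 9 of 40 members: Ccne1, Aurkb, Birc5, Cenpe, Cenpf, Kif20a, Kif23, Prc1 and Foxm1. The ratio of TPM had another sign than the ratio of counts in 3 of 39 members, which were Aurkb, Cenpf and Prc1. Cenpf is the clearest case in the alignment-based values: its counts were higher and its TPM lower in replicate 2. The transcript Cenpf-202 of 358 bases held 62.0% of its TPM in replicate 1 and none in replicate 2, while the full-length Cenpf-204 of 11130 bases held 29.6% and 74.4%. In Cenpe the retained-intron transcript Cenpe-204 held 4.76% and 40.2%, and the count ratio of Cenpe was 0.19 where its TPM went from 0.41 to 0.92. The read-based quantification of the same reads did not give these shifts. There Cenpf-204 held 96.8% in replicate 1 and 60.7% in replicate 2, and Cenpf TPM went from 0.40 to 0.96. For Cenpe it gave 0% on retained-intron transcripts in both libraries, and Cenpe-203 of 582 bases held 0% and 55.3%.

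Of the 39 members with several annotated transcripts, 34 had the same leading transcript in both libraries, and in 35 the leading transcript was protein-coding. The median share of TPM on protein-coding transcripts was 94.8% for the S phase and 92.6% for the mitotic members. Tyms, Cenpa and Ccnb1 were below 50% in both libraries. Tyms had 12.6% and 13.5% on coding transcripts, with Tyms-205 and Tyms-207, both annotated to nonsense-mediated decay, at 43.8% and 48.8% and at 35.1% and 24.4%. Cenpa had 30.3% and 20.8%, and Ccnb1 had 48.4% and 40.2%, the rest of Ccnb1 being largely a retained-intron transcript of 461 bases, Ccnb1-205, at 40.6% and 59.8%.

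Counting only protein-coding transcripts lowered these members but kept the gap between the classes. The median was 2.91 and 3.90 TPM for the S phase and 0.50 and 0.77 TPM for the mitotic members. Cenpa moved from the top of the mitotic members to rank 17 of 24 with a mean coding level of 0.511 TPM, and Cdk1 then led with 1.24 TPM. Tyms moved from rank 6 to rank 14 of the 16 S phase members. Again 13 of the 16 S phase members lay above the highest mitotic member. The coding level was higher in replicate 2 for 15 of 16 S phase and 21 of 24 mitotic members. Gene-level TPM was higher in replicate 2 for 10700 nuclear protein-coding genes and lower for 6034.

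The read-based tables, a second quantification of the same reads, gave lower median coding shares, 86.5% for the S phase and 78.5% for the mitotic members. They gave another split for Tyms, with 60.7% and 77.9% on coding transcripts. For Ccnb1 they gave 52.1% and 82.0%, and for Cenpa 20.7% and 14.6%. The coding share of Cenpa was thus low by both quantifications, while that of Tyms and Ccnb1 was above 50% in the read-based tables.

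**Figure D4:**
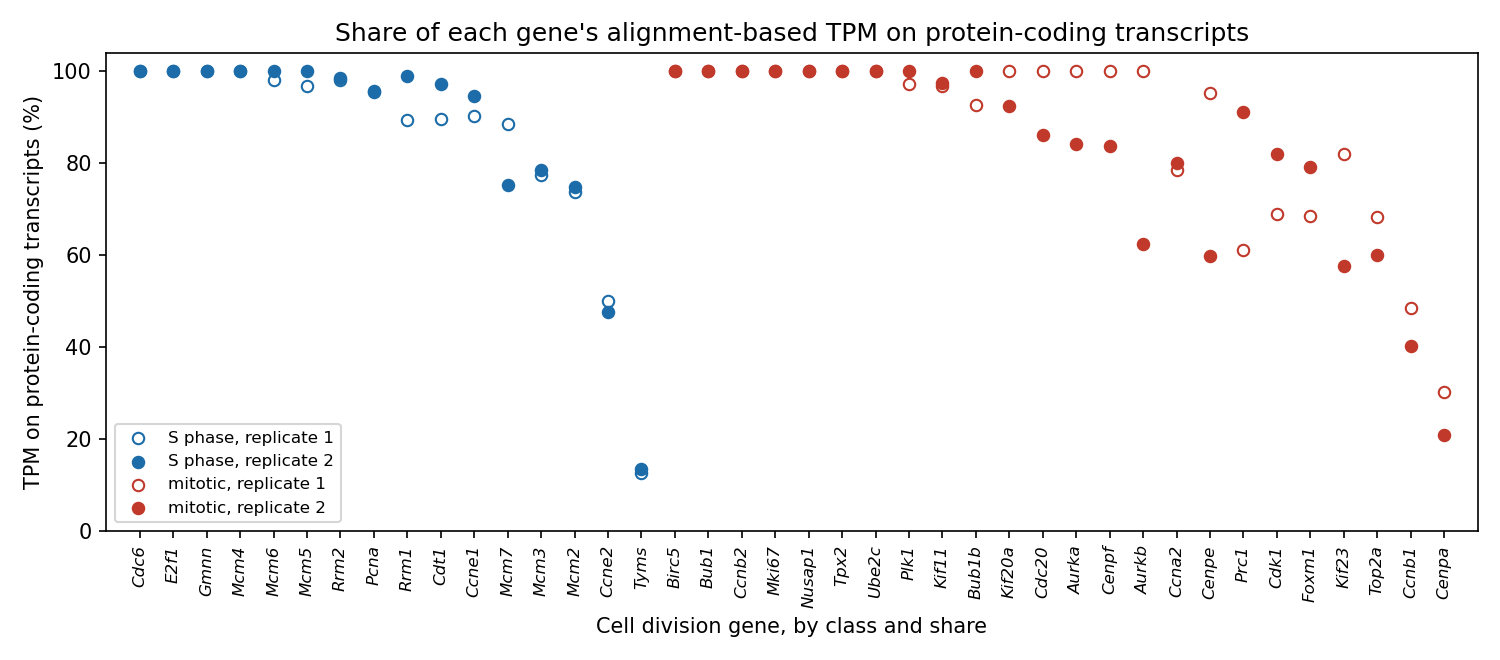
Percent of each member's TPM on protein-coding transcripts (y axis, alignment-based) with genes by class on the x axis, open points for replicate 1 and filled points for replicate 2. The class medians are 94.8% (S phase) and 92.6% (mitotic), and Tyms (12.6% and 13.5%), Cenpa (30.3% and 20.8%) and Ccnb1 (48.4% and 40.2%) lie lowest.

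At gene level the quantifications differed mainly by a shift common to all genes. Read-based TPM of protein-coding genes was higher than alignment-based TPM by a median log2 of 0.85 in replicate 1 and 0.93 in replicate 2. After that shift was removed, the S phase members differed by a median of 0.11 and 0.03 and the mitotic members by 0.15 and 0.05. No member differed over 2-fold the same way in both libraries. In a single library some did, on the log2 scale Cenpf (-1.71) and Nusap1 (1.17) in replicate 1 and Ccnb1 (-1.13) and Ccne2 (1.06) in replicate 2. The log2 ratio of the libraries had the same sign in 37 of 39 members, the exceptions being Aurkb and Cenpa, and its class medians were 0.10 and 0.35.

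Some members share exon sequence with genes on the other strand, and whether the counting used strand was not given in the sources used here. There are 9 such members. Kif20a overlaps Cdc23 over 977 bases, and Cdc23 had 1344 and 1314 counts beside 95 and 105 for Kif20a. Prc1 overlaps Rccd1 over 670 bases, with 218 and 211 counts for Rccd1. Ccna2 overlaps Exosc9 over 428 bases, with 545 and 559 counts for Exosc9, and Ccne2, Mcm7, Plk1, Nusap1, Cdc20 and Ube2c overlap neighbours as well. The counts of these neighbours were close between the libraries for Cdc23, Rccd1 and Exosc9. Mcm7, Pcna and Ccnb1 had counts that were not whole (tolerance 0.005), as happens where a read is shared out among genes.

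Other genes of the same processes, from lists chosen with the earlier results known, gave levels in the same order. The other 40 replication genes had a median of 2.75 TPM and the other 50 mitotic genes a median of 0.533 TPM, a 5.15-fold difference. Of the replication genes, Orc3 and Orc4 (origin recognition complex), Rpa1 (single-stranded DNA binding) and Pold2 (polymerase delta) were highest, Orc3 with 17.3 TPM and Rpa1 with 16.4 TPM. Of the mitotic genes, the kinetochore protein Zwint (43.5 TPM), the checkpoint protein Bub3 (22.9 TPM), securin Pttg1 (13.0 TPM) and condensin subunit Smc4 (8.29 TPM) were highest, above every mitotic member. At a mean of 20 counts or more, 33 of 39 of these mitotic genes were higher in replicate 2 (median 0.22, 5 over 1.5-fold higher) and 26 of 39 of the replication genes (median 0.09, 4 over 1.5-fold higher). Over all genes at that minimum 49.4% were higher and 3.33% over 1.5-fold higher. Of protein-coding genes with 20 to 100 counts, 7.95% were over 1.5-fold higher. The 50 mitotic genes had a median of 40 counts and the 40 replication genes a median of 191. Mcm10, a replication fork factor, had 0.47 and 1.57 TPM and a count ratio of 1.68, and the mitotic motors Kif4 and Kif22 had ratios of 1.26 and 0.97. The lowest ratios in these lists were -0.35 for the primase subunit Prim1 and -0.35 for the condensin subunit Ncaph.

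Genes that act before S phase had higher medians than either class, and fewer of them were higher in replicate 2. The 9 cyclins and kinases of G1 had a median of 11.7 TPM, led by Ccnd2 with 158 TPM and Ccnd3 with 94.7 TPM, and a median log2 ratio of 0.00 with 5 higher and 4 lower. The 16 CDK inhibitors and pocket proteins, which restrain division, had a median of 6.78 TPM and a median ratio of -0.09, with 11 of 16 lower in replicate 2. Cdkn1c (p57) was the highest at 67.1 TPM. Cdkn1a (p21) had 10.54 and 7.32 TPM and a ratio of -0.61, and Cdkn2c (p18) had 33.19 and 24.32 TPM and a ratio of -0.53. The 16 genes of the anaphase-promoting complex list had a median of 20.1 TPM and a median ratio of -0.02, beside 0.32 for Cdc20 and Ube2c, which work with the complex. Clustered histone genes, which are transcribed mainly in S phase and whose list was chosen after values were seen, had a median ratio of -0.03 with 27 of 63 higher.

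Defining markers of the labelled tissue were high, with Star, the cholesterol carrier of steroid synthesis, at 5294 and 5939 TPM. Markers of several other cell types also differed between the libraries. The 7 brown adipocyte genes summed to 1589 and 810 TPM (6 of 7 lower in replicate 2), the 8 white adipocyte genes to 3460 and 2750 TPM (8 of 8 lower), and the 8 red cell and erythroid genes to 1455 and 883 TPM (6 of 6 counted lower). Chromaffin markers (median -0.28, 8 of 8 lower) and stroma markers (-0.31, 7 of 8 lower) were lower in replicate 2, adrenal cortex (0.12, 6 of 8 higher) and endothelium (0.09, 7 of 8 higher) markers were slightly higher, and macrophage markers (0.03) were level. Liver markers summed to 4.78 and 12.14 TPM and kidney markers to 2.88 and 6.17 TPM, with Slc12a1 at 0 counts in both. Lymphocyte markers summed to 4.09 and 5.48 TPM, and 8 of 9 were below 1 TPM in both. The part of these cell types in the ratio of the division genes was not tested.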

How the data were processed

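Total RNA-seq of 2 libraries in 1 group was used. The authors deposited expected counts and TPM per gene and transcript, per the file headers, from transcriptome alignments, and estimated counts and TPM per transcript from reads and an index (read-based). The build was mm10 with GENCODE M21, per the deposited file notes. Tool names and versions are not given in the sources used here, and the signal tracks are not analysed here.

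Read-based values were summed per gene. For the ratio of the libraries, 0.5 was added to the expected counts, which were divided by TMM-scaled library sizes (edgeR 4.0.16, R 4.3.3). It was taken as log2, replicate 2 over replicate 1, where the mean reached 20 counts, with exact Clopper-Pearson 95% intervals (scipy 1.17.1). Libraries held 36512731 and 34454888 expected counts (35055544 and 33159188 read-based estimated counts), which leaves Ccne2, at 32 and 37 counts, an interval of -0.50 to 0.95 on the log2 scale. Counts were rounded to whole numbers for the scaling factors and the intervals only. There was no test, because there is 1 group. The calculations were checked on simulated data. Of each other list, the 4 genes with the highest TPM and the 2 with the largest ratio each way could be named, and any member. Members, classes and lists were chosen with earlier results of these data known. Promoters whose window held over 30 exon bases of the gene were passed over in printing, a step added after the values were seen. The background of genes with 20 to 100 counts was also added then. Alternatives were other scalings (DESeq2 1.42.0 size factors, totals, ERCC), count minimums, quantifiers and classes.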

Additional observations from a re-analysis of the deposited data

How the results depend on the processing

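No setting reversed the direction of a class level or a class median ratio. Among single members, the ratio of TPM had the other sign than the ratio of counts in Aurkb, Cenpf and Prc1, and read-based counts gave the other sign in Aurkb and Cenpa. The S phase level was 3.41 to 4.50 TPM and the mitotic level 0.56 to 0.92 TPM when either replicate was left out, and the log2 difference of the classes was 2.29 to 2.61. With read-based TPM the levels were 6.84 and 1.55 TPM and 29 members reached 1 TPM; rescaled over nuclear protein-coding genes they were 12.8 and 2.50 TPM and 38 members. With either replicate left out, 19 to 23 members reached 1 TPM. Without replicate 2 the log2 difference of the classes was 2.61. Without Gmnn, Ccna2, Cdk1 and Foxm1 the S phase level was 3.595 TPM and the mitotic level 0.73 TPM. The median ratios were then 0.14 and 0.35. Members over 1.5-fold higher numbered 13 by the ratio of TPM, 10 with total-count scaling and 10 with ERCC scaling. They numbered 5 with read-based counts, 3 at a mean of 50 or more counts and 3 at 2-fold. By the ratio of TPM 1 was over 1.5-fold lower. The ratio of TPM had a median of 0.09 over 15650 genes, so it leaned to replicate 2 in general. The share of all genes past these limits is not given at the changed settings, so the member counts there have no background beside them. With ERCC scaling, which moved the median of all genes by 0.10, 19 members were higher beyond counting error, and with total-count scaling 18 were. At a mean of 50 or more counts 10 were and with read-based counts 8, beside 12 in the main calculation. These counts too have no background beside them at the changed settings. Over the settings the S phase median ratio was 0.10 to 0.25, the mitotic median 0.35 to 0.58 and their difference 0.22 to 0.36. A shared gene length and coding transcripts alone were added after seeing the data and moved no class level by over its spread. With coding transcripts alone 14 members reached 1 TPM, and with a shared gene length 18 did. The ratio of TPM has no counting interval. No paired analysis was possible because there is 1 group. With 1 library a side, a ratio cannot leave out a replicate.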
